A study of Sus scrofa with 12 samples.

Results

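The porcine let-7 family in these liver libraries consisted of 8 members of a table of 774 miRNA entries. They were taken by name: every entry whose name starts with ssc-let-7 and does not end in -3p, together with ssc-miR-98. These are ssc-let-7f-5p, ssc-let-7a, ssc-let-7g, ssc-let-7c, ssc-let-7i-5p, ssc-let-7d-5p, ssc-miR-98 and ssc-let-7e. Small RNA of 18 to 30 nt from pig liver was sequenced in 12 libraries of 2 breeds. The 4 groups of 3 libraries were Hezuo pigs under cold at -15 ± 2 °C, Hezuo pigs at a normal temperature of 23 ± 2 °C, Bama pigs under the same cold and Bama pigs at the same normal temperature, all sampled at day 15. The study set each breed's normal-temperature group as the control and asked about the cold resistance of Hezuo pigs. The sources used here give no age, sex or litter. The labels number pigs 1 to 3 in every group without saying whether a number names the same animal at both temperatures, so the p-values below measure the spread between these libraries.

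let-7 miRNAs are among the most widely conserved miRNAs of animals. They are loaded into Argonaute proteins and repress mRNAs that pair with the seed, the stretch near the 5′ end, among them mRNAs of HMGA2, LIN28, RAS and IGF2BP proteins in mammals. LIN28 in turn blocks the maturation of let-7 precursors, and in the adult liver, where LIN28 is low, let-7 is abundant. In mice, let-7 and LIN28 act in opposite directions on insulin signalling and glucose handling.

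The sequences are shown because the members share their seed and differ by few bases elsewhere, which decides how far their counts can be told apart. They are the mature sequences of the deposited table, 5′ to 3′ in DNA letters, with the seed (bases 2 to 8) in capitals.
ssc-let-7f-5p: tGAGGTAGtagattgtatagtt
ssc-let-7a: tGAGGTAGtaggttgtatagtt
ssc-let-7g: tGAGGTAGtagtttgtacagtt
ssc-let-7c: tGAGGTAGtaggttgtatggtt
ssc-let-7i-5p: tGAGGTAGtagtttgtgct
ssc-let-7d-5p: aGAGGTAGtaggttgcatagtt
ssc-miR-98: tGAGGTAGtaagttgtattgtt
ssc-let-7e: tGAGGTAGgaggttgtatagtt
let-7-x: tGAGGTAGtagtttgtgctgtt

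All 8 members carried the same seed. Counted from 1 at the 5′ end and with ssc-let-7a as the first base of each token, ssc-let-7f-5p differed by G12A, ssc-let-7c by A19G and ssc-let-7e by T9G. ssc-let-7g differed by G12T and T18C, ssc-let-7d-5p by T1A and T16C, and ssc-miR-98 by G11A and A19T. ssc-let-7i-5p was listed with 19 bases, against 22 for each of the others, and differed over that length by G12T, A17G, T18C and A19T. The sources used here do not say how tags that match several entries were divided, so the counts of members that differ by 1 base are uncertain individually.

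The family was dominated by 3 members. ssc-let-7f-5p had 550892 counts over the 12 libraries, ssc-let-7a 401013 and ssc-let-7g 297267, and they ranked 14, 19 and 20 in the table by count. ssc-let-7c followed with 67768 counts at rank 32. The other 4 were scarcer, with 19007 counts of ssc-let-7i-5p, 15553 of ssc-let-7d-5p, 12767 of ssc-miR-98 and 6996 of ssc-let-7e. In CPM (counts scaled to a common library size, adjusted by the trimmed mean of M-values, TMM), ssc-let-7f-5p averaged 5577 ± 354 CPM, ssc-let-7a 4076 ± 277 CPM, ssc-let-7g 3015 ± 326 CPM and ssc-let-7c 690.0 ± 109 CPM (SD, n = 12). The lower 4 averaged 193.6 ± 32.6 CPM for ssc-let-7i-5p, 157 ± 14.2 CPM for ssc-let-7d-5p, 129 ± 9.87 CPM for ssc-miR-98 and 71.7 ± 18.7 CPM for ssc-let-7e. The top 4 members kept ranges over the 12 libraries that did not overlap with each other, while the ranges of neighbours among the lower 4 did overlap. The coefficient of variation over the 12 libraries was lowest for ssc-let-7f-5p at 6.34% and highest for ssc-let-7e at 26.1%. Ligation of adapters can favour some ends over others, so orders of abundance between different sequences are those of the libraries.

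The table held 8 further entries with the let-7 seed, named from other species or predicted, and let-7-x among them had more counts over the 12 libraries than any member. let-7-x begins with all 19 bases of ssc-let-7i-5p and has 3 more. It had 596603 counts at rank 13, which is 31.4 times those of ssc-let-7i-5p and 30.3% of the 1969578 counts of all 16 entries with the seed. The 19007 counts of ssc-let-7i-5p are thus those of its 19-base entry only, and do not include tags listed under let-7-x. The 8 members held 1371263 counts, and the remaining 7 entries held 9 to 1388 counts each, 1712 in all. Of these, miR-98-x and miR-6134-z were listed with an identical sequence but with 109 and 37 counts. Over the 12 libraries the log2 CPM of ssc-let-7i-5p correlated with that of ssc-let-7e at r = 0.85 and with that of let-7-x, which contains its sequence, at r = 0.38. ssc-let-7i-5p amounted to 2.33%, 2.85% and 3.25% of the let-7-x counts in the Hezuo cold libraries and to 3.03%, 2.93% and 3.03% in the Hezuo normal libraries. The same percentage was 3.34%, 3.15% and 3.71% in the Bama cold libraries and 3.85%, 3.01% and 3.97% in the Bama normal libraries, and the cold and normal libraries overlapped in each breed.

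**Figure D1:**
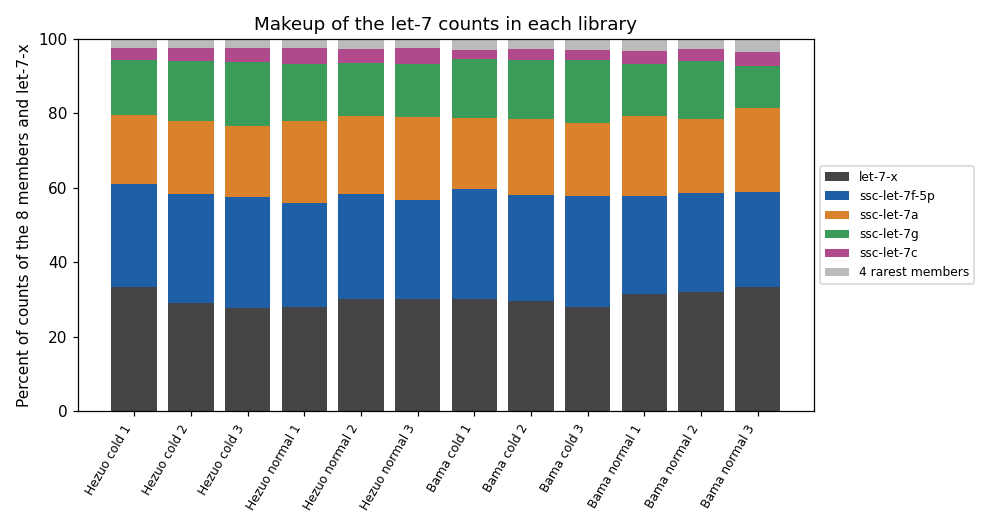
Stacked bars for each of the 12 libraries give the percentage of the counts of the 8 members and let-7-x that each entry held, with the 4 scarcest members summed. let-7-x held 27.7% to 33.5% of the counts of all entries with the seed in every library. It was the largest block in 8 libraries and ssc-let-7f-5p in the other 4, which were Hezuo cold replicates 2 and 3, Hezuo normal replicate 1 and Bama cold replicate 3.

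Listed counts per library lay between 7184168 and 10384074, and 655 to 694 entries had counts in a library. Member counts per library ranged between 448 and 61134, at which the widest 95% Wilson interval of a member's share of the family's counts was ± 0.305 percentage points. Reads carry no molecular identifiers here, so such intervals cover counting error only. miRNAs that mark hepatocytes (miR-122, miR-192, miR-194 and miR-148a, 15 entries) made up 82.2% to 86.8% of listed counts, and muscle miRNAs (miR-1, miR-133 and miR-206, 5 entries) 0.000536% to 0.00163%. Each miRNA on these lists had an entry in the table. The hepatocyte sum was 82.2% to 84.3% in the Hezuo cold libraries and 84.5% to 86.8% in the Hezuo normal libraries. Its largest entries moved in opposite directions. miR-122-5p was 46.1 ± 2.94% of listed counts in Hezuo cold and 53.6 ± 3.04% in Hezuo normal libraries. miR-148a-3p was 28.7 ± 1.45% in Hezuo cold and 22.8 ± 1.55% in Hezuo normal libraries (SD, n = 3 each). The endothelial miR-126 sum (4 entries) was 1.26% to 1.53% in the Hezuo cold libraries and 1.05% to 1.15% in the Hezuo normal libraries. The muscle sum was 0.00117% to 0.00163% in the Hezuo cold libraries and 0.000536% to 0.000933% in the Hezuo normal libraries. It rests on few counts, and only 1 of its 5 entries passed the filter on low counts. For the hepatocyte, endothelial and muscle sums the Bama cold and normal libraries overlapped. The part of the Hezuo shifts in the let-7 values was not tested. In such bulk tissue, fewer cells of a type and less RNA per cell cannot be told apart.

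The 8 members together held 1.502 ± 0.0900% of listed counts in Hezuo cold libraries and 1.28 ± 0.107% in Hezuo normal libraries, and 1.40 ± 0.0304% in Bama cold libraries and 1.38 ± 0.0670% in Bama normal libraries (SD, n = 3 each). The Hezuo cold libraries, at 1.40% to 1.58%, lay above the Hezuo normal libraries, at 1.16% to 1.35%, whereas the Bama groups overlapped. A share of listed counts moves with miR-122-5p and miR-148a-3p, which took most of the reads. It is also not TMM-scaled, and Hezuo normal replicate 3, the library with the lowest share, had the lowest TMM factor (0.816). After TMM scaling the median log2 difference of the members under cold was 0.02 in Hezuo and -0.06 in Bama. This median weighs each member alike, so it does not give the direction of the summed level. In each breed 4 members were positive and 4 negative. With all 16 entries of the seed the share was 2.15 ± 0.155% in Hezuo cold and 1.82 ± 0.135% in Hezuo normal libraries, and 1.99 ± 0.0668% in Bama cold and 2.05 ± 0.0842% in Bama normal libraries, which turns the Bama difference from higher to lower under cold.

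Under cold, averaged over both breeds, 1 of 8 members was called by edgeR's quasi-likelihood test at a Benjamini-Hochberg adjusted p below 0.05, against 2.17% of the 460 entries tested. It was ssc-let-7c, which was lower. The members did not move one way: 4 had positive and 4 negative log2 differences, with a median of -0.04, beside a median of -0.03 and 45.2% positive over all 460 entries. All 8 members passed the filter on low counts. At an unadjusted p below 0.05 were 4 of 8 members, against 17.8% of all entries. In each breed, 2 of 8 members had cold libraries that did not overlap the normal libraries on the same side, ssc-let-7g (higher) and ssc-let-7c (lower), against 2.83% of all entries.

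ssc-let-7c, which is encoded beside miR-99a, had 673, 703 and 719 CPM in Hezuo cold libraries, against 782, 744 and 885 CPM in Hezuo normal libraries. In Bama it had 507, 550.1 and 561 CPM in cold libraries, against 750.2, 651 and 756 CPM in normal libraries. Each cold library lay below each normal library of its breed, and the Bama cold libraries were the lowest of all 12. The log2 difference was -0.31 ± 0.07 over both breeds (SE, edgeR adjusted p = 0.04), -0.20 ± 0.10 in Hezuo (adjusted p = 0.552) and -0.41 ± 0.10 in Bama (adjusted p = 0.0552). The call over both breeds was close to its threshold: over 14 other settings the adjusted p ran between 0.0127 and 0.212 and passed in 3, and with any library but Bama normal replicate 2 left out it no longer passed. The direction was lower in each of these fits, and the difference shrank to -0.18 where entries with the same first 16 bases were summed, which joins ssc-let-7c to ssc-let-7a. The Hezuo difference was -0.09 without Hezuo normal replicate 3 and -0.02 with library totals, where the median of all entries was itself 0.14. DESeq2 called ssc-let-7c over both breeds and in Bama alone, where it called 5.44% and 4.63% of the entries it gave an adjusted p. The difference between the breeds' responses, 0.21 ± 0.14 on the log2 scale, was not called (edgeR adjusted p = 0.961) and was 0.32 without Bama normal replicate 2.

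ssc-let-7g, the member encoded within WDR82, had 3140.4, 3334 and 3428 CPM in Hezuo cold libraries, against 2971, 2743 and 2907 CPM in Hezuo normal libraries. In Bama it had 3131, 3052 and 3364 CPM in cold libraries, against 2911, 2988 and 2214 CPM in normal libraries. Each cold library was above each normal library of its breed. The log2 difference over both breeds was 0.22 ± 0.08 (SE), and the test did not call it (edgeR adjusted p = 0.214). It was 0.20 ± 0.11 in Hezuo and 0.23 ± 0.11 in Bama. Bama normal replicate 3 was the lowest library. When entries with the same first 16 bases were summed, which joins ssc-let-7g to ssc-let-7i-5p and let-7-x, the difference was 0.03 over both breeds and -0.08 in Bama. Without Bama normal replicate 3 the Bama difference was 0.15, against 0.23 with it.

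ssc-let-7f-5p, the most abundant member, had 5829.6, 6091 and 5911 CPM in Hezuo cold libraries and 5373, 5418 and 5373 CPM in Hezuo normal libraries. In Bama it had 5891, 5471 and 5959 CPM in cold libraries and 5494, 5163 and 4949 CPM in normal libraries. The groups were separate in Hezuo, and in Bama the lowest cold library lay just under the highest normal library. The log2 difference over both breeds was 0.15 ± 0.06 (SE, edgeR adjusted p = 0.224). ssc-miR-7-5p was the abundant entry whose levels were most like those of ssc-let-7f-5p (r = 0.78, or 0.25 with group means removed). It is one of 11 entries of the nervous and endocrine markers (miR-7, miR-9, miR-124 and miR-375). The summed share of these markers was 0.0545% to 0.0731% in Hezuo cold and 0.0320% to 0.0538% in Hezuo normal libraries, and 0.0685% to 0.0765% in Bama cold and 0.0417% to 0.0572% in Bama normal libraries. This share was thus higher in cold than in normal libraries in both breeds. Over both breeds 1 of its 7 tested entries was called, against 2.17% of the 460 entries tested. The directions of its single entries are not given here, and its part in the let-7 differences was not tested.

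ssc-let-7a, made from several gene copies, had 3921, 4072 and 3778 CPM in Hezuo cold libraries and 4175, 4046 and 4548 CPM in Hezuo normal libraries. In Bama it had 3818, 3884 and 3901 CPM in cold libraries and 4494, 3836 and 4434 CPM in normal libraries. Both breeds overlapped, and the log2 difference was -0.13 ± 0.07 (SE, edgeR adjusted p = 0.322), or -0.07 without Hezuo normal replicate 3 or without Bama normal replicate 3. The sign in Hezuo depended on the scaling, since library totals in place of TMM gave 0.06, where the median of all entries was itself 0.14.

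The 4 scarcer members were not called. ssc-let-7e, which is encoded with miR-99b and miR-125a, had 51.8, 62.9 and 59.3 CPM in Hezuo cold and 62.6, 69.1 and 77.9 CPM in Hezuo normal libraries. It had 55.7, 64.6 and 81.6 CPM in Bama cold and 96.7, 62.4 and 116 CPM in Bama normal libraries, and the groups overlapped in each breed. Its log2 difference over both breeds was -0.36 ± 0.15 (edgeR adjusted p = 0.229), and -0.21 without Bama normal replicate 3. ssc-let-7i-5p differed by -0.13 ± 0.10 (0.03 where relatives with the same first 16 bases were summed, and -0.20 to -0.05 with 1 library left out), ssc-let-7d-5p by 0.04 ± 0.08 and ssc-miR-98 by 0.11 ± 0.08 (edgeR adjusted p between 0.487 and 0.824). ssc-miR-98, encoded within HUWE1 beside a let-7f gene, had 131 to 140.5 CPM in Hezuo cold and 109.999 to 123 CPM in Hezuo normal libraries, whereas the Bama groups overlapped.

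**Figure D2:**
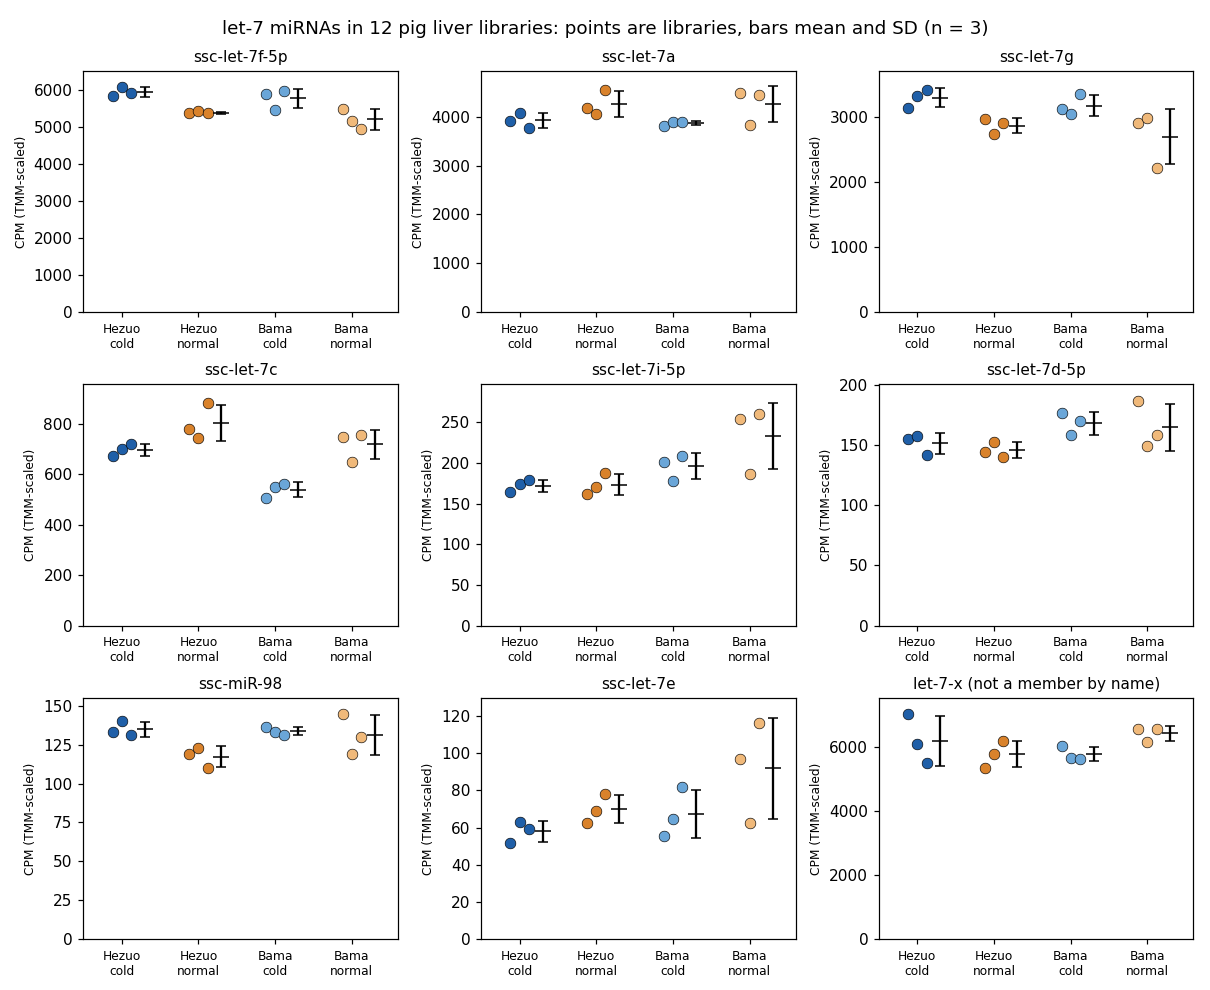
CPM (vertical axis from 0) of the 8 members and let-7-x in each library, by group; points are libraries and the bars beside them the mean and SD of 3. ssc-let-7c lay lower in cold than in normal libraries of each breed, and the Bama normal libraries were the most spread for ssc-let-7g, ssc-let-7i-5p and ssc-let-7e.

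Within each breed alone the test called fewer entries. In Hezuo, 0 of 8 members were called, against 0% of 460 entries by edgeR and likewise 0 by DESeq2 and limma-voom. At an unadjusted p below 0.05 were 0 members by edgeR and limma-voom, against 43 entries of the whole table by edgeR (9.35%). By DESeq2 there were 2 members, and the share of all entries by DESeq2 was not computed. The Hezuo groups did not overlap for 4 of 8 members, ssc-let-7f-5p, ssc-let-7g and ssc-miR-98 (higher) and ssc-let-7c (lower), against 15.4% of all entries. In Bama, edgeR called 0 of 8 members, against 1.09% of all entries, limma-voom 0 and DESeq2 1, with 1 member at an unadjusted edgeR p below 0.05, against 14.6% of all entries. The Bama groups did not overlap for 2 of 8 members, against 16.7% of all entries, which is near that background. The difference between the breeds' responses was called for 0 of 8 members by edgeR, DESeq2 and limma-voom, against 0% of all entries. At an unadjusted edgeR p below 0.05 were 0 members, against 25 entries (5.43%). The longer form let-7-x was not called: it differed by -0.03 ± 0.07 over both breeds, 0.10 ± 0.10 in Hezuo and -0.16 ± 0.10 in Bama (edgeR adjusted p between 0.549 and 0.871). Its Bama cold libraries, at 5626 to 6025 CPM, lay below its Bama normal libraries, at 6174 to 6575 CPM, whereas its Hezuo groups overlapped.

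Ratios of members within a library do not depend on library scaling, and several of them kept cold and normal libraries apart. The ratio of ssc-let-7f-5p to ssc-let-7a, which differ only by G12A, was 1.487, 1.496 and 1.565 in Hezuo cold and 1.29, 1.34 and 1.18 in Hezuo normal libraries. In Bama it was 1.54, 1.41 and 1.53 in cold and 1.22, 1.35 and 1.12 in normal libraries. Each of the 6 cold libraries was above each of the 6 normal libraries. The ratio of ssc-let-7g to ssc-let-7c was 4.67, 4.75 and 4.77 in Hezuo cold and 3.799, 3.69 and 3.29 in Hezuo normal libraries. In Bama it was 6.17, 5.55 and 5.997 in cold and 3.88, 4.59 and 2.93 in normal libraries. Each cold library was again above each normal library, and the highest values were those of Bama cold. Of the 28 pairs of members, 6 had cold and normal libraries that did not overlap on the same side in each breed, or 21.4%. This compares with 7.63% of the 6670 pairs among the 116 entries at least as abundant as ssc-let-7e. The 6 pairs were made from 5 members and share libraries and members, so they are not 6 separate observations.

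As shares of the family, ssc-let-7f-5p made up 41.3 ± 0.120% of member counts in Hezuo cold and 39.0 ± 1.24% in Hezuo normal libraries, and 41.4 ± 0.889% in Bama cold and 38.5 ± 0.636% in Bama normal libraries (SD, n = 3 each). ssc-let-7a made up 27.3 ± 0.828% in Hezuo cold and 30.8 ± 1.05% in Hezuo normal libraries, and 27.8 ± 0.884% in Bama cold and 31.5 ± 2.45% in Bama normal libraries. ssc-let-7c made up 4.85 ± 0.135% in Hezuo cold and 5.80 ± 0.366% in Hezuo normal libraries, and 3.88 ± 0.217% in Bama cold and 5.33 ± 0.437% in Bama normal libraries. For these 3 members the cold and normal shares did not overlap in either breed. No share over all entries was computed to set beside this. In CPM, ssc-let-7a overlapped in both breeds and ssc-let-7f-5p in Bama. ssc-let-7g made up 22.9 ± 0.834% in Hezuo cold and 20.8 ± 0.660% in Hezuo normal libraries, and 22.8 ± 0.491% in Bama cold and 20.01 ± 2.87% in Bama normal libraries, with overlap in Bama. Averaged over the breeds, cold minus normal was 2.62 points for ssc-let-7f-5p and 2.50 for ssc-let-7g, and -3.61 for ssc-let-7a and -1.20 for ssc-let-7c. Shares of a whole are tied to each other, so a higher share of one member lowers the others.

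**Figure D3:**
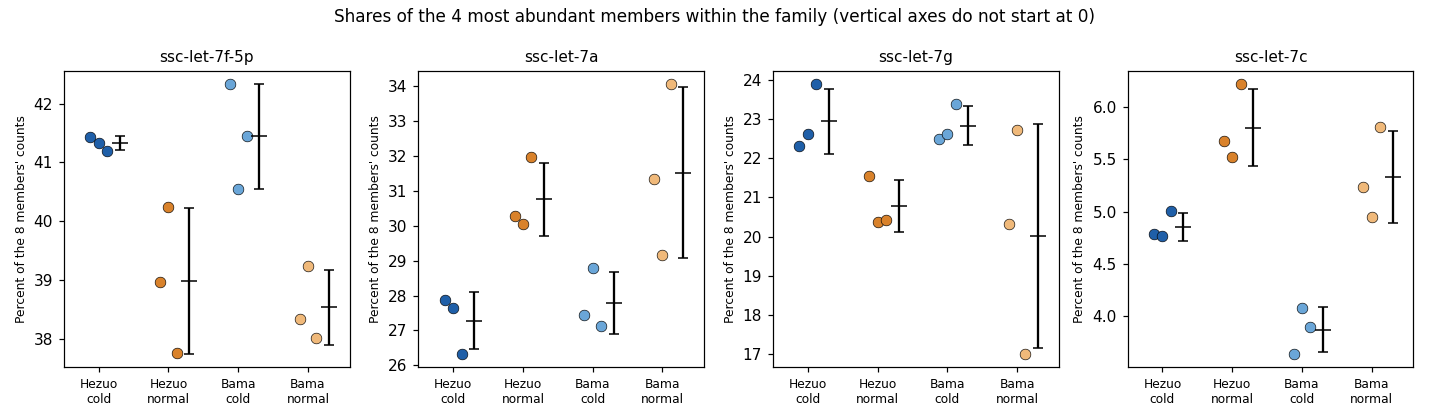
Share of each of the 4 most abundant members in the counts of the 8 members (percent, vertical axes not from 0) by library and group; bars give the mean and SD of 3 libraries. Cold libraries stood above normal ones for ssc-let-7f-5p and below them for ssc-let-7a and ssc-let-7c in both breeds.

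**Figure D4:**
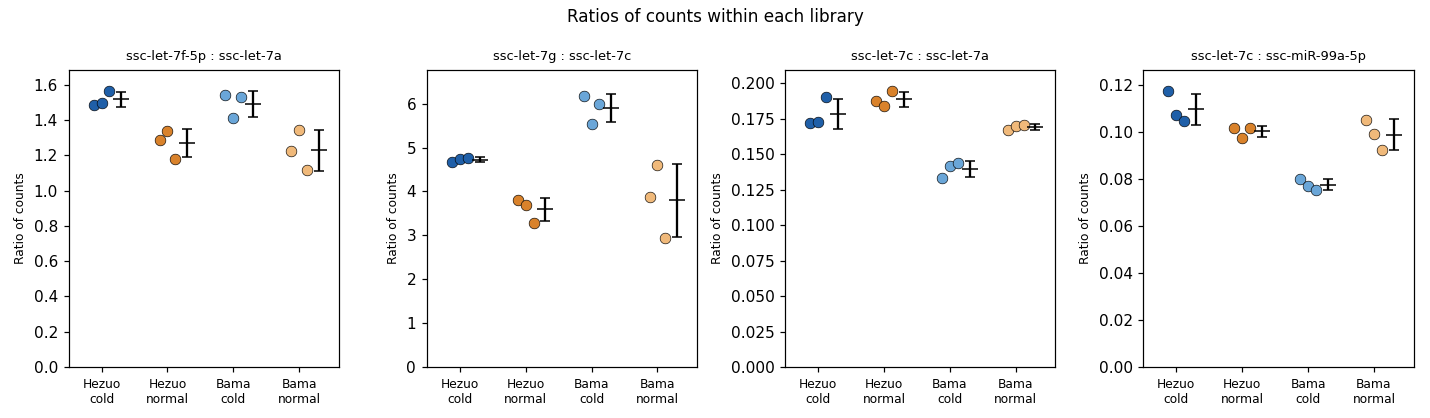
Ratios of counts within each library (vertical axes from 0) by group, with the mean and SD of 3 libraries. The ratio of ssc-let-7f-5p to ssc-let-7a was 1.52 ± 0.0425 in Hezuo cold and 1.27 ± 0.0805 in Hezuo normal libraries, and 1.49 ± 0.0737 in Bama cold and 1.23 ± 0.115 in Bama normal libraries; the ratio of ssc-let-7c to ssc-miR-99a-5p was lowest in Bama cold.

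Between the breeds, edgeR called no member at either temperature. At normal temperature edgeR and limma-voom called 0 of 8 members, against 3.7% of all entries by edgeR, with 1 member at an unadjusted edgeR p below 0.05, against 20.2% of all entries, and DESeq2 called 1 of 8, against 8.62%. That member was ssc-let-7i-5p, with 162, 169.8 and 188 CPM in Hezuo normal libraries, against 253, 186 and 260.1 CPM in Bama normal libraries. Bama normal replicate 2 overlapped the Hezuo libraries, so the groups were not separate. The log2 difference, Hezuo minus Bama, was -0.43 ± 0.14 (SE, edgeR adjusted p = 0.0818), and without Bama normal replicate 2 it was -0.59 and called. It was -0.16 where entries that begin with its sequence were added and -0.05 where those with the same first 16 bases were summed, both of which add let-7-x. No member had groups that did not overlap at normal temperature, against 22.2% of all entries. ssc-let-7i-5p and ssc-let-7e had log2 differences of -0.43 and -0.39 between Hezuo and Bama normal libraries, and the same Bama normal libraries, 1 and 3, were high for both. The difference of ssc-let-7e was -0.19 without Bama normal replicate 3 and -0.63 without Bama normal replicate 2. Stellate cell, fibroblast and smooth muscle miRNAs (19 entries of miR-143, miR-145, miR-199 and miR-214) summed to 1.64% to 2.08% of listed counts in Hezuo normal and 2.25% to 3.14% in Bama normal libraries. The hepatocyte sum was 84.5426% to 86.8% in Hezuo normal and 83.3% to 84.5276% in Bama normal libraries, also without overlap. The part of these markers in the differences was not tested.

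Under cold, edgeR and limma-voom called 0 of 8 members between the breeds, against 4.35% of all entries by edgeR, with 1 member at an unadjusted edgeR p below 0.05, against 15% of all entries, and DESeq2 called 1 of 8, against 5.91%. ssc-let-7c had 673, 703 and 719 CPM in Hezuo cold libraries, against 507, 550.1 and 561 CPM in Bama cold libraries, which did not overlap. The log2 difference was 0.37 ± 0.10 (SE, edgeR adjusted p = 0.0561), just outside the threshold. With the first 16 bases summed it was 0.16. At normal temperature the difference of ssc-let-7c was 0.16 ± 0.10 and the groups overlapped (edgeR adjusted p = 0.404). It was 0.05 without Hezuo normal replicate 3, 0.07 without Bama normal replicate 2, 0.08 without Hezuo cold replicate 2 and 0.24 without Hezuo normal replicate 2. ssc-let-7d-5p, the lower in Hezuo, had 154.6, 158 and 141.4 CPM in Hezuo cold libraries, against 177, 158 and 169.6 CPM in Bama cold libraries, separated by under 1 CPM. These 2 of 8 members without overlap compare with 20.2% of all entries. Over pairs of members, 7 of 28 ratios (25%) kept the breeds apart on the same side at both temperatures, against 12.5% of the 6670 pairs, and 5 of the 7 involve ssc-let-7c. The ratio of ssc-let-7c to ssc-let-7a was 0.172, 0.173 and 0.190 in Hezuo cold libraries, against 0.133, 0.142 and 0.144 in Bama cold libraries. It was 0.187, 0.184 and 0.194 in Hezuo normal libraries, against 0.167, 0.170 and 0.170 in Bama normal libraries.

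**Figure D5:**
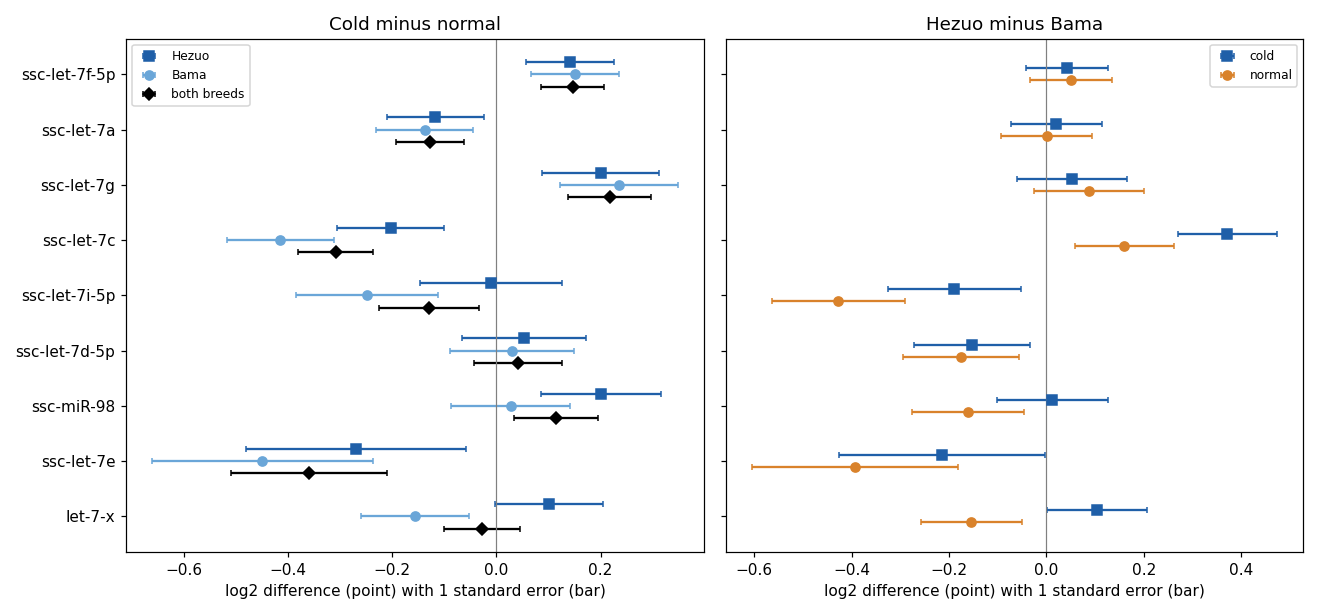
log2 differences (point) with 1 SE (bar) of the 8 members and let-7-x, cold minus normal at left and Hezuo minus Bama at right. ssc-let-7c had the cold difference farthest from 0 in units of its SE, at -0.31 over both breeds, and stood at 0.37 between the breeds under cold.

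Most let-7 genes lie beside other miRNA genes. The pig annotation of Sscrofa11.1, used here for names and neighbours only because the files name no genome build, places MIRLET7A-2, MIRLET7F-2 and MIRLET7D together, MIRLET7A-1 with MIR100 and MIR125B-1, MIRLET7C with MIR99A, and MIRLET7E with MIR99B and MIR125A. MIR98 and MIRLET7F-1 lie within HUWE1, an E3 ubiquitin ligase gene, and MIRLET7G within WDR82. MIRLET7I had no miRNA gene within 60000 bases. Mature ssc-let-7a and ssc-let-7f-5p come from more than 1 gene, and their counts cannot be divided among them.

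None of the 5 most abundant porcine partners in these clusters was called under cold. ssc-miR-99a-5p, encoded beside ssc-let-7c, differed by -0.20 ± 0.08 over both breeds (SE, edgeR adjusted p = 0.224), -0.33 in Hezuo and -0.06 in Bama. ssc-miR-100 differed by -0.08, ssc-miR-125b by -0.09, ssc-miR-125a by -0.13 and ssc-miR-99b by -0.12. The ratio of ssc-let-7c to ssc-miR-99a-5p was 0.117, 0.107 and 0.105 in Hezuo cold and 0.102, 0.0978 and 0.102 in Hezuo normal libraries. In Bama it was 0.0802, 0.0771 and 0.0756 in cold and 0.105, 0.0994 and 0.0924 in normal libraries. The Bama cold libraries were the lowest of the 12, and in Hezuo the ratio was higher in cold than in normal libraries. ssc-miR-100, the partner of a let-7a gene, was the only one of these 5 called between the breeds: it had 1877, 1481 and 1850.2 CPM in Hezuo cold libraries, against 1133, 1359 and 879 CPM in Bama cold libraries, a log2 difference of 0.63 ± 0.16 (SE, edgeR adjusted p = 0.0436). At normal temperature it differed by 0.49 ± 0.16 (edgeR adjusted p = 0.0977), while ssc-let-7a differed between the breeds by 0.02 under cold and 0.00 at normal temperature.

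The other strands of the hairpins were scarce. ssc-let-7d-3p had 1808 counts, ssc-let-7f-3p 159 and ssc-let-7i-3p 105, and the entry let-7-y, which is named from other species, had 2033. Over both breeds ssc-let-7d-3p differed under cold by -0.47 ± 0.20 and its other strand ssc-let-7d-5p by 0.04 ± 0.08 (SE, edgeR adjusted p = 0.243 and 0.824). The ratio of ssc-let-7d-5p to ssc-let-7d-3p was 14.1, 12.7 and 10.4 in Hezuo cold libraries, each above the 9.23, 6.03 and 9.85 of the Hezuo normal libraries. In Bama it was 11.2, 10.03 and 6.98 in cold libraries and 7.35, 9.64 and 5.13 in normal libraries, which overlapped. ssc-let-7f-3p differed by 0.42, ssc-let-7i-3p by -0.18 and let-7-y by -0.13, and none of the 4 was called.

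Across the 12 libraries the members fell into patterns that cut across abundance, given here as a description over libraries that share their groups and depth. The log2 CPM of ssc-let-7f-5p and ssc-let-7g correlated at r = 0.85, ssc-let-7a and ssc-let-7c at r = 0.73, ssc-let-7a and ssc-let-7e at r = 0.74, and ssc-let-7d-5p and ssc-miR-98 at r = 0.75. In contrast, ssc-let-7f-5p and ssc-let-7a correlated at r = -0.50 and ssc-let-7a and ssc-let-7g at r = -0.61. After the group means were removed, the first pair of these, ssc-let-7f-5p and ssc-let-7a, stood at 0.13 and ssc-let-7a and ssc-let-7c at 0.83. Among 86 entries outside these lists with a mean of at least 100 CPM, those most like the summed members were ssc-miR-22-5p (r = 0.66), ssc-miR-22-3p (r = 0.64) and miR-203-y (r = 0.62). The entry most like each member was ssc-miR-7-5p for ssc-let-7f-5p (r = 0.78), ssc-miR-122-5p for ssc-let-7a (r = 0.76), ssc-miR-148a-5p for ssc-let-7g (r = 0.81) and miR-192-z for ssc-let-7c (r = 0.81). It was ssc-miR-128 for both ssc-let-7i-5p (r = 0.88) and ssc-let-7e (r = 0.84), ssc-miR-532-5p for ssc-let-7d-5p (r = 0.82) and ssc-miR-21-5p for ssc-miR-98 (r = 0.77). With group means removed, miR-192-z and ssc-let-7c stood at r = -0.32, so their likeness lay between the groups. ssc-miR-7-5p and ssc-let-7f-5p then stood at r = 0.25, and the pairs of the other members at r = 0.65 to 0.83. For the summed members, ssc-miR-22-5p then stood at r = 0.45, ssc-miR-22-3p at r = 0.69 and miR-203-y at r = 0.42.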

How the data were processed

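Small RNA was sequenced from pig liver in 12 libraries. Per the file headers, the deposited table gives raw tag counts and TPM for each library, and TPM equals the count divided by the library's total, with 0.01 TPM written for a count of 0. Listed counts were 84.3% to 88.2% of the totals these TPM imply, and 2 lines of the table had been emptied before use. The sources used here name no aligner, database or genome build. The members and lists were chosen with earlier results of these data known.

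The counts were tested with edgeR 4.0.16 in R 4.3.3 (TMM, filterByExpr by group, robust quasi-likelihood F tests, Benjamini-Hochberg adjustment over the 460 entries that passed, call at adjusted p below 0.05). All 12 libraries entered 1 model with group coefficients. The model was also run on simulated counts with changes planted in both cold groups. The smallest planted change was larger than any member's cold difference in the reported fit, so no result above rests on that run. limma 3.58.1 (voom) and DESeq2 1.42.0, other scalings, filters, groupings of related sequences, replicate blocks and left-out libraries were alternatives. Shares, ratios and correlations were computed with Python 3.11.15 and carry no test.

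Entries were named by rule: the 8 members, other entries with let-7 or miR-98 in the name or with the let-7a seed, miR-99, miR-100 and miR-125 entries, and the most alike entries by Pearson r of log2 CPM, namely 3 for the summed members and 1 for each member.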

Additional observations from a re-analysis of the deposited data

How the results depend on the processing

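The call of ssc-let-7c over both breeds depended on the settings. The count of members called was 1 as reported and 1 with DESeq2, with identical entries collapsed and with entries of the same first 20 bases summed. It was 0 with DESeq2 size factors, upper quartile factors, library totals, no filter, a mean of at least 10 counts, limma-voom, entries of the same first 16 bases summed, and miR-122-5p and miR-148a-3p left out. It was also 0 where entries that begin with a member's whole sequence were added to it, an alternative chosen after seeing the data. Leaving out libraries gave 0 to 1. The libraries gave no clear sign of pairing by pig number. Deviations from the group means correlated at 0.00785 to 0.168 between same-numbered libraries of a breed, and 2 of 6 correlated best with their own number. With 3 libraries per group this cannot tell whether a number names the same animal at both temperatures. With the replicate block by pig number, alone or within breed, the count was 0.

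In Bama the count was 1 with DESeq2, against 0. Between the breeds it was 1, against 0, with DESeq2 at normal temperature, and under cold with DESeq2, upper quartile factors, the first 20 bases summed and the added entries. Leaving out libraries gave 0 to 1 in both, with 1 without Bama normal replicate 2.

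Directions turned in few cases. ssc-let-7a in Hezuo was 0.0637 with library totals. With the first 16 bases summed, ssc-let-7i-5p was 0.0269 over both breeds and 0.172 between breeds under cold, where the added entries gave 0.127, and ssc-let-7g in Bama was -0.0838. These sums include let-7-x. Values within 1 SE of 0 were given no direction. Without miR-122-5p and miR-148a-3p, cold minus normal of the family's share was 0.535 points in Hezuo (0.219 as reported) and 0.253 in Bama (0.0210), and with all seed entries it was 0.332 and -0.0559. The first alternative takes most of the listed counts out of the base and the second adds counts to the family. The sizes of these differences therefore cannot be set against each other, only their signs. The median log2 difference of all entries moved to 0.14 with library totals in Hezuo, against -0.04, and to 0.19 with upper quartile factors between the breeds at normal temperature, against 0.05. The cause of these shifts was not tested. The other 783 values of single members under these alternatives kept their direction and their side of the threshold. Depth limits the scarce entries: ssc-let-7f-3p and ssc-let-7i-3p had 159 and 105 counts in all, and 5 further entries with the seed or a miR-98 name, with 9 to 75 counts, did not pass the filter and were not tested.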

Other observations

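The GC content of the 8 mature sequences was between 31.8% and 42.1%. Across the 8 members the log2 difference under cold over both breeds correlated with it at r = -0.68 (rho = -0.70), as a description with no test. Across the 116 entries at least as abundant as ssc-let-7e the correlation was r = -0.04, and across all 460 entries tested r = -0.14. The members are related sequences, each with 7 to 9 G or C bases. The highest percentage was that of ssc-let-7i-5p, which has 8 such bases but is listed with only 19 bases.

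In the whole table, 53 entries shared their sequence with another entry, as 24 distinct sequences, and for 4 of these sequences the listed counts differed between the entries. The 8 members had no entry with identical counts in every library, while 47 entries of the table did.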
